A study of Mus musculus with 6 samples.

Results

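The miRNAs named miR-297, miR-466, miR-467 and miR-669 form large families in rodents, and most of their genes stand side by side in an intron of *Sfmbt2*, a gene for a Polycomb group protein. They were followed here in the mouse *Apcfl/fl* model of hepatocarcinoma (HCC). Members were all mouse probes of the panel whose name starts with 1 of these 4 names, whatever letter or arm follows. This gave 33 probes among 566 probes for mouse miRNAs and 599 in the whole panel. RNA was isolated from frozen liver of 3 *Apcfl/fl* mice, homozygous for a floxed *Apc* allele that acts as a hypomorph, and of 3 *Apc+/+* mice as tumour-free controls, both on the C57Bl/6 strain. *Apc* restrains β-catenin, and the *Apcfl/fl* mice develop HCC driven by Wnt/β-catenin signalling. No agent, Cre line or age is given for these animals, and the share of tumour in the *Apcfl/fl* tissue is not stated. MiR-122, the main miRNA of hepatocytes, ranged from 16793 to 29686 counts in *Apc+/+* and from 6688 to 15416 counts in *Apcfl/fl* mice, so the marker of the labelled tissue was high in every sample.

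As background, a miRNA is cut from a hairpin transcript and guides silencing of mRNAs that pair with its seed, the bases from position 2 to 8. *Sfmbt2* is an imprinted gene in the mouse, read from the paternal allele above all in extraembryonic tissue, and the miRNA block in its intron is known for a role in the placenta. The block grew by repeated duplication, so its members resemble each other closely, and many carry runs of alternating CA or UG.

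In RefSeq (assembly GRCm38.p6) there are 81 miRNA genes with these 4 names, of which 71 lie inside *Sfmbt2* on chromosome 2 and 10 lie elsewhere. The 33 probes carry 39 miRNA names, since 4 probes name more than 1 miRNA, and these names matched 63 of the 81 genes. For 25 probes every matched gene lay inside *Sfmbt2*. Another 3 probes named miRNAs with genes both inside and outside it. The other 5 probes, for miR-466i, miR-466j, miR-466k, miR-467f and miR-467g, had their only gene on chromosome 13, 10, 3, 11 and 5 in this order, so the cluster name fits these by family and not by place. The 2 names miR-466a-3p and miR-466a-5p had no gene of the same name in the table, and each shares its probe with a miRNA whose gene lies in *Sfmbt2*.

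Mature sequences matched by exact name for 5 of the 39 names. All 5 belong to genes outside *Sfmbt2*, so none is a sequence of the intronic block itself. They are shown for the CA or UG repeat that each of them carries. Sequences and positions are those of RefSeq on GRCm38.p6, written 5′ to 3′ with the seed in capitals. MiR-466j lies at chr10:60960802-60960824 on the plus strand, miR-466k at chr3:85467396-85467418 on the plus strand, miR-467f at chr11:69635419-69635439 on the minus strand, miR-467g at chr5:34732872-34732892 on the minus strand, and miR-467h at chr9:115381898-115381919 on the plus strand.
miR-466j: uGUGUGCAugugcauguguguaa
miR-466k: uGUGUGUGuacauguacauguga
miR-467f: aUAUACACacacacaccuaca
miR-467g: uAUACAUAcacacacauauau
miR-467h: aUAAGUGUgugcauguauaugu

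These 5 miRNAs had 5 different seeds. Seeds were searched in 1679 mature mouse sequences, of which 8 bear 1 of the 4 names, so most members of the intronic block were not part of this search. Among the sequences searched, miR-668-5p shared its seed with miR-467h, and no probe of the panel bore that name. The longest run of a CA or UG repeat, read in either frame and in whole units of 2 bases, had 12 bases in miR-467f, 8 in miR-466k and in miR-467g, and 6 in miR-466j and in miR-467h. All 5 thus held the word CACACA, its shifted form ACACAC, the word UGUGUG or its shifted form GUGUGU. These words overlap each other and were searched on the RNA strand only. Of the 1671 mature mouse miRNAs in the table outside the 4 names, 41 (2.45%) held at least 1 of them.

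Expression was measured with the NanoString assay, which counts single molecules caught by a colour-coded probe of each miRNA without amplification, and the profile was made to search for miRNAs that differ between HCC and normal liver. The deposited values are counts not scaled between livers, from which a constant of each probe had been taken and which were set to 1 at the lowest. The total was 82942 to 133331 counts on mouse miRNAs per liver. The panel also holds 33 probes for miRNAs of mouse viruses, which served as background. A probe was called above background in a liver where its count was over the mean plus 2 SD of the viral probes there. For *Apc+/+* livers 1 to 3 this limit was 19.96, 23.3 and 14.3 counts, and for *Apcfl/fl* livers 1 to 3 it was 27.8, 13.1 and 19.2 counts, which is 0.0108% to 0.0289% of a liver's mouse miRNA counts.

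In the deposited counts the miR-297, miR-466, miR-467 and miR-669 probes stood at the level of the viral probes in the livers of both genotypes. A constant of unknown size had been taken from each probe, so only what was left after it could be compared. None of the 33 was above the limit in all 6 livers, against 19.3% of the mouse probes. In at least 1 liver 4 of the 33 (12.1%) were above it, against 45.1% of the mouse probes and 2 of the 33 viral probes. Counted over probes and livers, 4 of 198 values (2.02%) passed the limit, beside 5 of 198 values (2.53%) of the viral probes and 30.3% of the values of the 533 other mouse probes. The limit was made from these same viral values, so their own share above it was bound to be low. The limit leans on 1 viral probe, mcmv-miR-M87-1, which had the highest mean count of the viral probes, 47.3 counts in *Apcfl/fl* liver 1, and 4 of the 5 viral values above the limit. With this probe left out of the limit, an alternative added after the data had been seen, 12 of the 198 cluster values (6.06%) from 9 of the 33 probes passed it. Of the other viral values, from which this limit was made, 6 of 192 (3.13%) did so. Among the mouse probes 50.7% passed it in at least 1 liver. Still 0 of the 33 cluster probes passed it in all 6 livers. At the lowest value of 1 stood 43 of the 198 values (21.7%), against 28 (14.1%) for the viral probes.

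**Figure D1:**
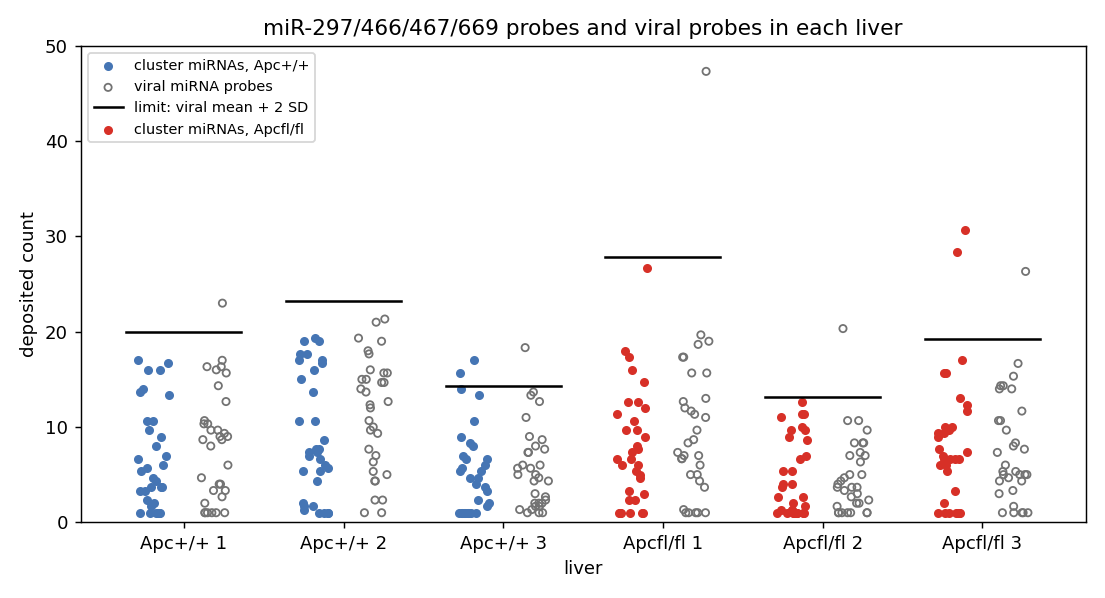
Deposited count (linear axis) of the 33 cluster probes (filled points, blue for *Apc+/+*, red for *Apcfl/fl*) and of the 33 viral probes (open circles) in each of the 6 livers, with the limit of that liver as a black line. Cluster points pass the line in *Apc+/+* liver 3 and in *Apcfl/fl* liver 3 only, with 2 points in each.

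The mean count of the 33 probes was 6.79, 9.06 and 5.30 across *Apc+/+* mice against 7.90, 4.62 and 8.49 across *Apcfl/fl* mice. The mean of the viral probes in the same livers was 8.20, 11.3 and 5.66 against 10.1, 4.91 and 7.64. In both sets *Apc+/+* liver 2 had the highest mean and *Apcfl/fl* liver 2 the lowest. The cluster mean minus the viral mean was between -2.27 and -0.293 counts in 5 of the 6 livers, and 0.849 counts in *Apcfl/fl* liver 3. As deposited, the cluster mean was 7.05 ± 1.89 counts (SD, n = 3) for *Apc+/+* against 7.0 ± 2.09 counts (SD, n = 3) for *Apcfl/fl*, a difference within the spread between mice. All 33 probes together held 0.241% ± 0.0984 (SD, n = 3) of the mouse miRNA counts in *Apc+/+* mice, against 0.210% ± 0.0612 (SD, n = 3) with *Apcfl/fl*. With the mean of the viral probes first taken from every count, the share was 0.0615% and 0.0606%. In bulk liver, fewer cells of a type and less RNA per cell cannot be told apart.

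**Figure D2:**
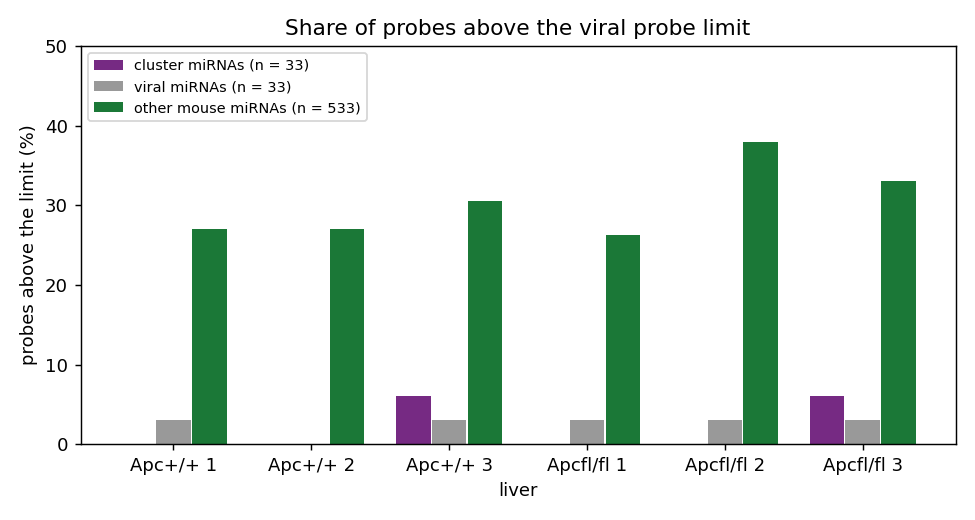
Percentage of probes above the viral probe limit in each liver for the 33 cluster probes, the 33 viral probes and the 533 other mouse probes, on a linear axis from 0. The cluster bars are at 0 in 4 livers and rest on 2 probes in each of *Apc+/+* liver 3 and *Apcfl/fl* liver 3, while the other mouse probes lie between 26.3% and 37.9%.

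The mean counts of the 4 families lay close together. Over the 6 livers the mean count per probe was 5.74 for the 4 probes that start with miR-297, 7.64 for the 12 of miR-466, 7.90 for the 8 of miR-467 and 6.01 for the 9 of miR-669. Values above the limit numbered 1 of 24, 2 of 72, 1 of 48 and 0 of 54 in this order. By place, probes with every matched gene in *Sfmbt2* had a mean of 7.08 counts, and the 5 with their gene on another chromosome had 7.22 counts. By arm, the 6 probes for a 5p arm had a mean of 5.88 and the 3 for a 3p arm 7.98 counts. For the other 24 probes, with no arm in the name, the mean was 7.19 counts. Probes of 1 family share sequence, and no family or place is a replicate of a genotype, so these means were not tested.

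The highest mean over the 6 livers belonged to miR-467e (MIMAT0005293), with 17, 19 and 14 counts across *Apc+/+* livers against 18, 11 and 17 across *Apcfl/fl* livers. It was under the limit of every liver, and closest to it in *Apc+/+* liver 3. With mcmv-miR-M87-1 left out of the limit it was above in 3 livers, *Apc+/+* liver 3 and *Apcfl/fl* livers 2 and 3. MiR-466l (MIMAT0005830) followed with 16.7, 17.7 and 6.67 counts across *Apc+/+* livers against 26.7, 9.67 and 15.7 across *Apcfl/fl* livers, also under the limit throughout, and above the limit without that viral probe in *Apcfl/fl* liver 1. The third was miR-467f (MIMAT0005846), the member with the longest repeat above, with 13.3, 19.3 and 8.33 counts across *Apc+/+* livers against 17.3, 11.3 and 12.3 across *Apcfl/fl* livers. It too was under the limit throughout, and above the limit without that viral probe in *Apcfl/fl* liver 2. For all 3 the deposited counts of the genotypes overlapped. At the other end, miR-467b (MIMAT0005448) stood at the lowest value of 1 in all 6 livers. The mean counts of the 33 probes ran from 1 to 16, those of the viral probes from 2.17 to 24.7.

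The 4 values above the limit came from 4 different probes, which are named because they are so few. MiR-466g (MIMAT0004883) had 1, 17.7 and 1 counts across *Apc+/+* livers against 12.7, 1 and 30.7 across *Apcfl/fl* livers. MiR-297c (MIMAT0004865) had 4.33, 7.33 and 1 counts across *Apc+/+* livers against 7.33, 5.33 and 28.3 across *Apcfl/fl* livers. Both passed the limit in *Apcfl/fl* liver 3 alone, where they were also above the highest viral probe (26.3 counts). MiR-467c (MIMAT0004885) had 1, 1 and 17 counts across *Apc+/+* livers against 9, 1 and 10 across *Apcfl/fl* livers. The probe for miR-466a-5p and miR-466e-5p (MIMAT0004759) had 1.67, 5.67 and 15.7 counts across *Apc+/+* livers against 10.7, 9.67 and 6.67 across *Apcfl/fl* livers. Both of these passed the limit in *Apc+/+* liver 3 alone, and the highest viral probe there had 18.3 counts. No probe was above the limit in all livers of 1 genotype, and for each of the 4 the genotypes overlapped.

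**Figure D3:**
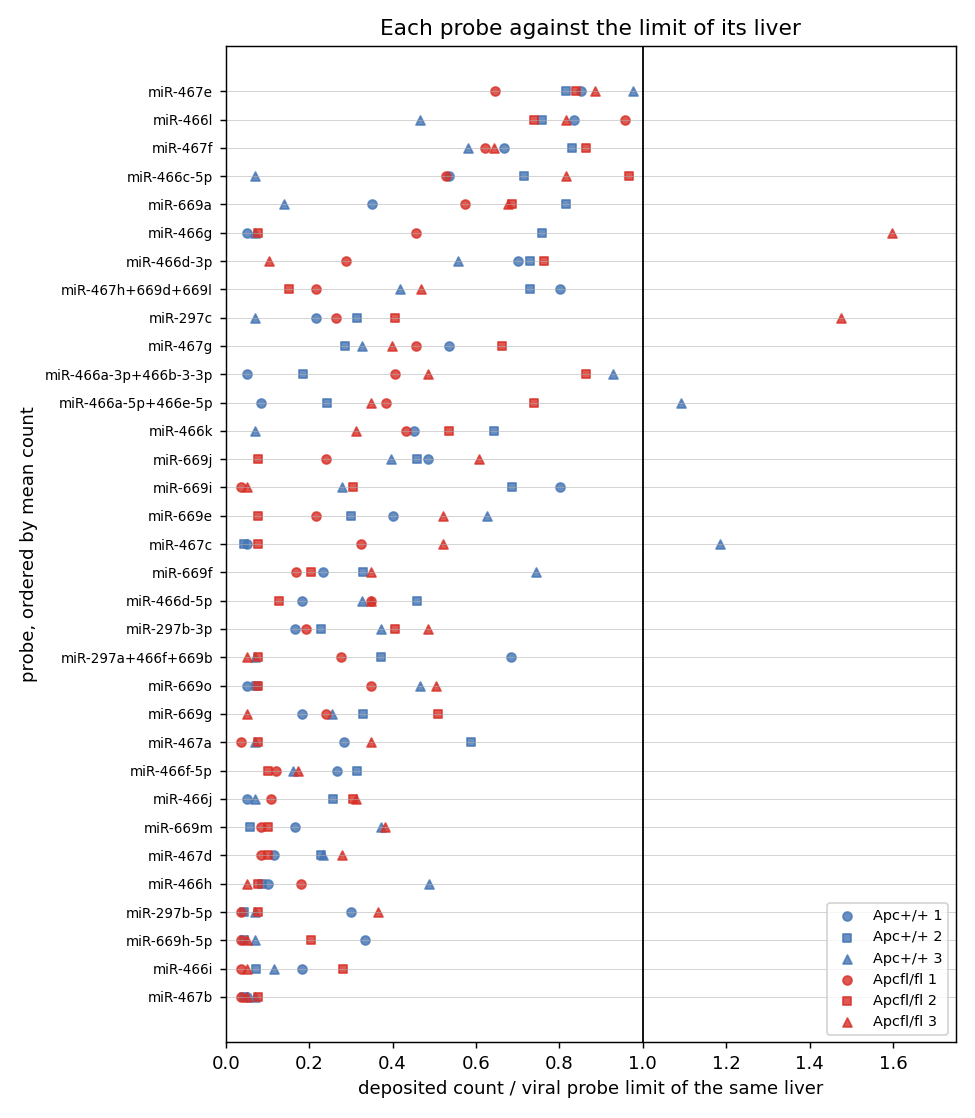
Deposited count of each of the 33 probes divided by the viral probe limit of the same liver (linear axis), ordered by mean count, with blue for *Apc+/+*, red for *Apcfl/fl* and a marker shape for each replicate number. The vertical line is the limit, and of the 198 points 4 lie to its right, from miR-466g, miR-297c, miR-467c and the probe for miR-466a-5p and miR-466e-5p.

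Not every miRNA of the panel with such a repeat was at background. Outside the 4 names, 8 probes had an exact name match to a mature sequence with 1 of the words searched above. Of these, 5 were under the limit in all 6 livers, and 3 were above it in all 6. Only 196 mouse probes had an exact name match to a mature sequence, so most of the panel was not searched for these words. Among all 566 mouse probes, searched or not, 54.9% were under the limit in all 6 livers and 19.3% above it in all 6. The shares over the searched probes alone were not computed. MiR-342-3p had 32.3, 58.3 and 35.3 counts across *Apc+/+* livers against 51.3, 32.3 and 201 across *Apcfl/fl* livers. MiR-574-3p had 24.3, 37.3 and 21.3 counts across *Apc+/+* livers against 48.3, 54.3 and 30.3 across *Apcfl/fl* livers. MiR-574-5p had 20.3, 24.3 and 16.3 counts across *Apc+/+* livers against 28.3, 13.3 and 35.3 across *Apcfl/fl* livers. The count of miR-574-5p was only just above the limit in most livers. With mean plus 3 SD as the limit, miR-342-3p alone was above it in all 6 livers, miR-574-3p in 5 and miR-574-5p in 1. These were chosen by their sequence, and the livers of the genotypes overlapped for all 3.

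For the comparison of *Apcfl/fl* with *Apc+/+* liver, edgeR's quasi-likelihood test was set to take every mouse miRNA that averaged 20 counts or more over the 6 livers. Of the 566 mouse probes 30.7% passed this minimum, and 0 of the 33 cluster probes did, so none was tested in that fit. No fold change is given, since the members stood at the level of the viral probes. The fit was repeated with no minimum so that every member had a test. There 0 of the 33 had an adjusted p-value under 0.05 in edgeR, as had 0% of all 566, and the smallest adjusted p-value among the members was 0.22. Also with no minimum, DESeq2 called 0 of the 33 members and 3.18% of all mouse probes, and limma called 0 of the 33 and 0% of all. At an unadjusted p-value under 0.05, 1 member was lower and 0 were higher in *Apcfl/fl* liver, against 5.12% and 9.54% of all mouse probes. The member was miR-669i (MIMAT0005840), with 16, 16 and 4 counts across *Apc+/+* livers against 1, 4 and 1 across *Apcfl/fl* livers (unadjusted p = 0.014 in edgeR, adjusted p = 0.22). Its deposited counts of 4 in *Apc+/+* liver 3 and in *Apcfl/fl* liver 2 were equal, and all 6 were under the limit. Without *Apcfl/fl* liver 1 or without *Apcfl/fl* liver 3 it was no longer under 0.05.

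Scaling moved these low counts. Normalised with edgeR's TMM factors, which divide the counts of the *Apcfl/fl* livers by larger numbers, the cluster mean was 8.73 ± 2.31 (SD, n = 3) for *Apc+/+* against 5.86 ± 1.14 (SD, n = 3) for *Apcfl/fl*. The viral probes moved along, at 10.4 ± 3.48 (SD, n = 3) against 6.44 ± 2.31 (SD, n = 3). On this scale the *Apcfl/fl* livers lay all below the *Apc+/+* livers for 6 of the 33 cluster probes and all above for 0, against 20.5% and 5.12% of all mouse probes. For the viral probes the same count was 6 of 33 and 0 of 33. On the deposited counts it was 0 of 33 in both directions for the cluster, against 5.3% of all mouse probes in the lower and 10.1% in the higher direction. For the viral probes it was 0 of 33 lower and 1 of 33 higher. The TMM scale differs from the deposited counts only by division by the TMM factors. The number of cluster probes whose livers lay apart thus depended on this division. A biological cause was not tested.

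The 6 probes were miR-467b, miR-467e, miR-669e, miR-669f, miR-669i and the probe shared by miR-467h, miR-669d and miR-669l, whose miR-467h sequence is printed above. The last had 16, 17 and 6 counts across *Apc+/+* livers against 6, 2 and 9 across *Apcfl/fl* livers. Normalised, these were 20.2, 20.9 and 7.37 against 5.40, 2.12 and 5.91. MiR-467b, at 1 in every liver as deposited, became 1.26, 1.23 and 1.23 for *Apc+/+* against 0.900, 1.06 and 0.657 for *Apcfl/fl* by the division alone. These 6 were picked by their not overlapping, so no test of them as a set is given. An exact permutation test of 3 mice against 3 could not go below p = 0.1. All 6 were under the viral probe limit in every liver, and with mcmv-miR-M87-1 left out of the limit this held for all of them but miR-467e.

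**Figure D4:**
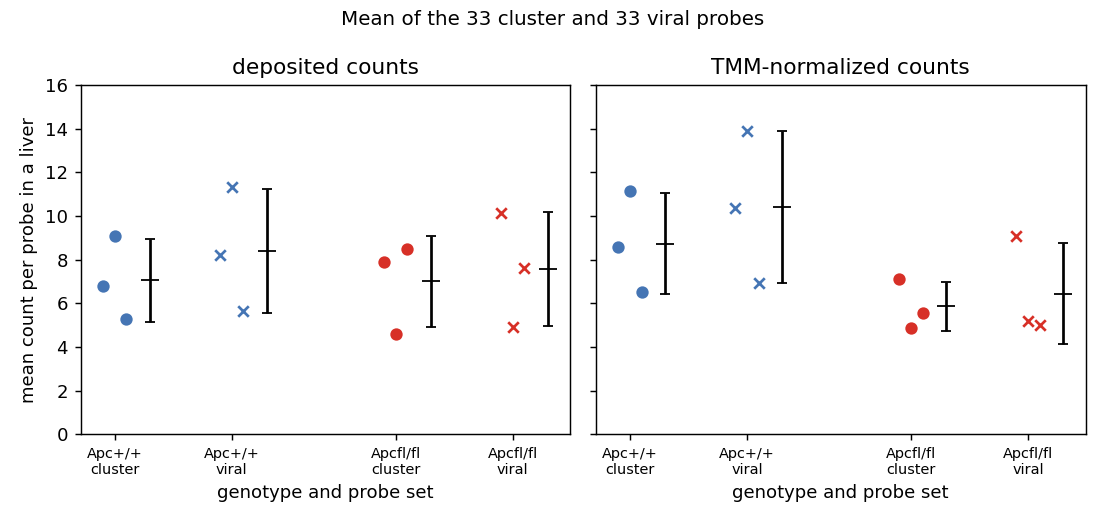
Mean count per probe of the 33 cluster probes (circles) and of the 33 viral probes (crosses) in each liver, as deposited (left) and after TMM normalisation (right), on the same linear axis. Bars to the right of the points give the mean and SD of 3 livers, and both probe sets go down from *Apc+/+* to *Apcfl/fl* on the right.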

How the data were processed

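MiRNA counts from 3 *Apcfl/fl* and 3 *Apc+/+* livers were used, grouped by genotype from the sample titles. The authors deposited estimated counts per probe without scaling between samples. A subtraction made before deposition shows in the values (1 shared decimal part in 584 of 584 probes with at least 2 values above 1), as does a lowest value of 1. The size of the constant taken from each probe is not given in the sources used here, so a raw count cannot be rebuilt. The members, lists and tests were chosen with earlier results of these data known.

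Counts were rounded and compared with edgeR 4.0.16 in R 4.3.3 (quasi-likelihood test, TMM over the 174 tested miRNAs, Benjamini-Hochberg adjustment, prior count 2), all 6 livers in the fit. Neither the library sizes nor the tests included viral probes. Normalised counts are counts divided by the effective library size over its mean. The edgeR procedure was tested on data simulated from the 174 tested miRNAs. These held 0 cluster probes, so the simulation did not cover the members or the fits with no count minimum. Named in full were members past the count minimum of 20 or above the viral limit in all 6 livers (0 members), and the 3 with the highest mean count. Other members were named after their values were seen. Alternatives were DESeq2 1.42.0, limma 3.58.1, other size factors, other count minimums, subtraction of the viral mean, a replicate block, other background limits and each liver left out. Combinations with no count minimum, unscaled counts and the limit without 1 viral probe were added after the data had been seen. The genome build is not given in the sources used here, and RefSeq was used for names, gene order and sequences only.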

Additional observations from a re-analysis of the deposited data

How the results depend on the processing

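With each of the 14 alternatives that kept a count minimum, 0 members were tested, so no median log2 fold change could be given, with the replicate block included. With no count minimum the members could be fitted, and in all 14 such fits 0 had an adjusted p-value under 0.05 (smallest 0.111 to 0.435 per fit). Over all mouse probes the same fits called 0% to 6.99%, with 3.18% in DESeq2, 2.12% with the total count, 0.53% with a size factor from the top 100 miRNAs and 6.99% of 472 after subtraction of the viral mean. There 1 member was lower at an unadjusted p-value under 0.05 with edgeR, with DESeq2, with the total count, with the total count less miR-720 and with the replicate block (3% to 5.12% of all mouse probes in these fits). It was 2 with limma (6.54% of all), 3 with the top 100 size factor (14% of all) and 0 of the 24 that could be fitted after subtraction of the viral mean (3.81% of all). Leaving out each liver in turn gave 1 to 3 lower (3 without *Apc+/+* replicate 3) and 0 to 2 higher (2 without *Apc+/+* replicate 2 or 3), beside 3.36% to 5.12% lower and 6.36% to 10.2% higher of all. MiR-669i was not among them without *Apcfl/fl* replicate 1 or 3. Livers with the same replicate number correlated at -0.05, -0.05 and 0.13 and were not taken as pairs.

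The number of members above background in at least 1 liver, and of values above it, was 2 with mean plus 3 SD or the highest viral probe as the limit and 3 with 20 counts (36.9%, 39% and 43.5% of all mouse probes). Without mcmv-miR-M87-1 these were 9 and 12 (50.7% and 31.4% of all, added after the data were seen). Both ranged from 2 to 4 with 1 liver left out (2 without *Apc+/+* or *Apcfl/fl* replicate 3), beside 39.8% to 44.9% of all probes and 27.2% to 29.4% of all values. No member was above it in every liver under any of these limits.

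Livers lay apart in the lower direction for 6 members with the top 100 size factor (23.3% of all mouse probes). It was 1 with the total count (6.36%) and 1 after subtraction of the viral mean (6.01%). The total count less miR-720 gave 2 lower (8.48%) and 1 higher (8.83%). No scaling, added after the data were seen, gave 0 lower (5.3%). Leaving out each liver in turn gave 6 to 14 lower, with 14 without *Apc+/+* replicate 3 and 10 without *Apcfl/fl* replicate 1 or 3, and 0 to 2 were higher (2 without *Apc+/+* replicate 2), beside 24% to 33.6% lower and 6.71% to 9.54% higher of all. After subtraction of the viral mean the members' share was 0.0615% in *Apc+/+* and 0.0606% in *Apcfl/fl* liver.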
